A study of Mus musculus with 35 samples.

Results

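The genes described here are 10 members of the transforming growth factor beta (TGF-beta) pathway and of the programme controlled by the co-activator YAP, chosen by name out of the 33292 genes of the expression table, of which 23943 had a value above 0 in at least 1 mouse. They comprise the ligand genes Tgfb1 and Tgfb2, the receptor genes Tgfbr1 and Tgfbr2, the signal transducer gene Smad3, the inhibitory Smad gene Smad7, the gene of YAP itself (Yap1) and the target genes Ccn1 (formerly Cyr61), Ccn2 (formerly Ctgf) and Ankrd1. The values were measured by RNA sequencing of podocytes, the epithelial cells that cover the outer face of the glomerular capillaries, sorted by green fluorescence from the kidneys of 35 mice.

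The control group, labelled WT, consisted of Lmx1b +/lox mice. The knock-in lines were Lmx1b H77L/lox, called H77L here, with an amino acid exchange in the LIM-A domain of the transcription factor Lmx1b, and Lmx1b C118F/lox, called C118F, with one in the LIM-B domain, in both cases on the allele that is not floxed. All mice, the controls included, also carried a doxycycline-inducible Cre active in podocytes and a fluorescent Cre reporter, were 7 to 10 weeks old, and received doxycycline at 2 mg/ml in the drinking water until day 7, so that the floxed allele was recombined in podocytes and the controls were left with 1 wild-type allele. In parallel, the mice were injected intraperitoneally every other day either with bortezomib (Btz), an inhibitor of the proteasome, at 0.3 μg per g body weight or with its solvent DMSO. There were 6 mice in each of the 6 groups but 1, the C118F mice given bortezomib, which numbered 5, and every library came from a mouse of its own. As the sort relies on recombination, podocytes that did not recombine were not sampled.

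TGF-beta ligands are secreted in a latent form and, once activated, bind a complex of the type II receptor Tgfbr2 and the type I receptor Tgfbr1, which phosphorylates Smad2 and Smad3. These join Smad4 and enter the nucleus to regulate transcription, whereas Smad7 is induced by the pathway and blocks its receptors. YAP, which is held back by the kinases of the Hippo pathway, binds TEAD factors and turns on genes such as Ccn1, Ccn2 and Ankrd1, and several of these genes respond to TGF-beta as well. In the glomerulus TGF-beta is known for matrix deposition and for podocyte loss, and YAP for the survival of podocytes and for their response to mechanical load.

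Promoters of the members are shown first, as a description, and their part in the differences between groups was not tested. RefSeq start sites of assembly GRCm38.p6 gave windows of 300 bases, 250 before and 50 after the start, for 8 of the 10 members. The windows were searched on both strands for GGAATG, the letters bound by TEAD factors, for CAGACA, a sequence bound by Smad proteins, for TGANTCA, the AP-1 site, and for the CArG box of serum response factor. In the sequences of Ankrd1 (chr19:36119795-36120094, minus strand), Ccn1 (chr3:145649936-145650235, minus strand), Tgfb2 (chr1:186705940-186706239, minus strand) and Tgfb1 (chr7:25686752-25687051, plus strand), read 5′ to 3′ along the gene, capitals mark the matches.
Ankrd1: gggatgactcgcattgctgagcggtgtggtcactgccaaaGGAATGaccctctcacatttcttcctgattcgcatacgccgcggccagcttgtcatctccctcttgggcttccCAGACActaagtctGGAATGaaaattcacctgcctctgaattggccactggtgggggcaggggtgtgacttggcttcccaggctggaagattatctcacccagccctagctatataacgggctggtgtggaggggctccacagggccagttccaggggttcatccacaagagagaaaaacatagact
Ccn1: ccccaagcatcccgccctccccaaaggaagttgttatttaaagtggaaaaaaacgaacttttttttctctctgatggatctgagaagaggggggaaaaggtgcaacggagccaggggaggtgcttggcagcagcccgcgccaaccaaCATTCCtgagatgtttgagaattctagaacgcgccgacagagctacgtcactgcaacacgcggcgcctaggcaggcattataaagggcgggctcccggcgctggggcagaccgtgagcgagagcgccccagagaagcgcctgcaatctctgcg
Tgfb2: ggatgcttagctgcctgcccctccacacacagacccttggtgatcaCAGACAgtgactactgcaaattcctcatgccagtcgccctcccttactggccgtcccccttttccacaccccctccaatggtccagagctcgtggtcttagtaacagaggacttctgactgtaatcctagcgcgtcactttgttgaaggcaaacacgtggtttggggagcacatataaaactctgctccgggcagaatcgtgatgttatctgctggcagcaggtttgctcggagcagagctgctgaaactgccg
Tgfb1: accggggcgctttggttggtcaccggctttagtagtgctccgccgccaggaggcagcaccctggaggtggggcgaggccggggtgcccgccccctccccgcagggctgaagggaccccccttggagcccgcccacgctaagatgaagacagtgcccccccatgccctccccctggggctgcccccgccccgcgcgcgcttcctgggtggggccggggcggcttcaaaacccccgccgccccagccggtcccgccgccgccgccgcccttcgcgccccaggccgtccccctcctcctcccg

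The Ankrd1 window held the TEAD letters at 2 places, beginning 210 and 123 bases before the start site, with the Smad letters between them at 137 bases. In the Ccn1 window the TEAD letters stood on the opposite strand, 103 bases before the start site. Tgfb2 held the Smad letters 204 bases before its start, and the window of Tgfb1, with a GC content of 77%, held none of the 4 motifs. Yap1 itself also held the TEAD letters, 141 bases before the start, and 1 of the 2 windows of Tgfbr1 held the Smad letters at 203 bases. The AP-1 site and the CArG box were found in none of the 9 windows of the members. Among all 32851 windows of the same length, 14.7% held the TEAD letters, 21.0% the Smad letters, 7.81% the AP-1 site and 1.63% the CArG box. No matches in the windows of the members overlapped, and a match describes the letters only. No window was given for Ccn2 and Smad7.

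On the GRCm39 assembly to which the reads were aligned, Tgfb1 (ENSMUSG00000002603) lies on chromosome 7 from 25386390 to 25404506, Tgfb2 (ENSMUSG00000039239) on chromosome 1 from 186354985 to 186438294, and Ccn2 (ENSMUSG00000019997) on chromosome 10 from 24471333 to 24474900. Tgfbr1 (ENSMUSG00000007613) lies on chromosome 4 from 47353134 to 47414931, Tgfbr2 (ENSMUSG00000032440) on chromosome 9 from 115913361 to 116004800, and Smad3 (ENSMUSG00000032402) on chromosome 9 from 63554049 to 63665476. Yap1 (ENSMUSG00000053110) lies on chromosome 9 from 7932000 to 8004661, Ccn1 (ENSMUSG00000028195) on chromosome 3 from 145352720 to 145355738, and Ankrd1 (ENSMUSG00000024803) on chromosome 19 from 36089352 to 36097506. Values are given as TPM, that is reads per length of the gene, scaled so that all genes of a mouse add up to the same sum, and each value counts the whole gene.

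In the control mice given DMSO, the members spanned more than 3 orders of magnitude per length, from a median of 5206 TPM for Ccn1 and 1482 TPM for Ccn2 to 3.10 TPM for Tgfb1 and 1.19 TPM for Tgfb2. Between these came Yap1 with a median of 62.2 TPM, Tgfbr2 with 30.5, Smad3 with 29.8, Tgfbr1 with 18.6, Ankrd1 with 9.54 and Smad7 with 8.81 TPM. The ranges over the 6 mice were apart between Ccn2 and Yap1, between Yap1 and Tgfbr2, and between Tgfbr1 and Ankrd1, while all other neighbours in this order overlapped. Both CCN genes, which encode secreted matricellular proteins, thus stood far above the other members. The plot of the levels of the 10 genes by mouse shows every value.

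**Figure D1:**
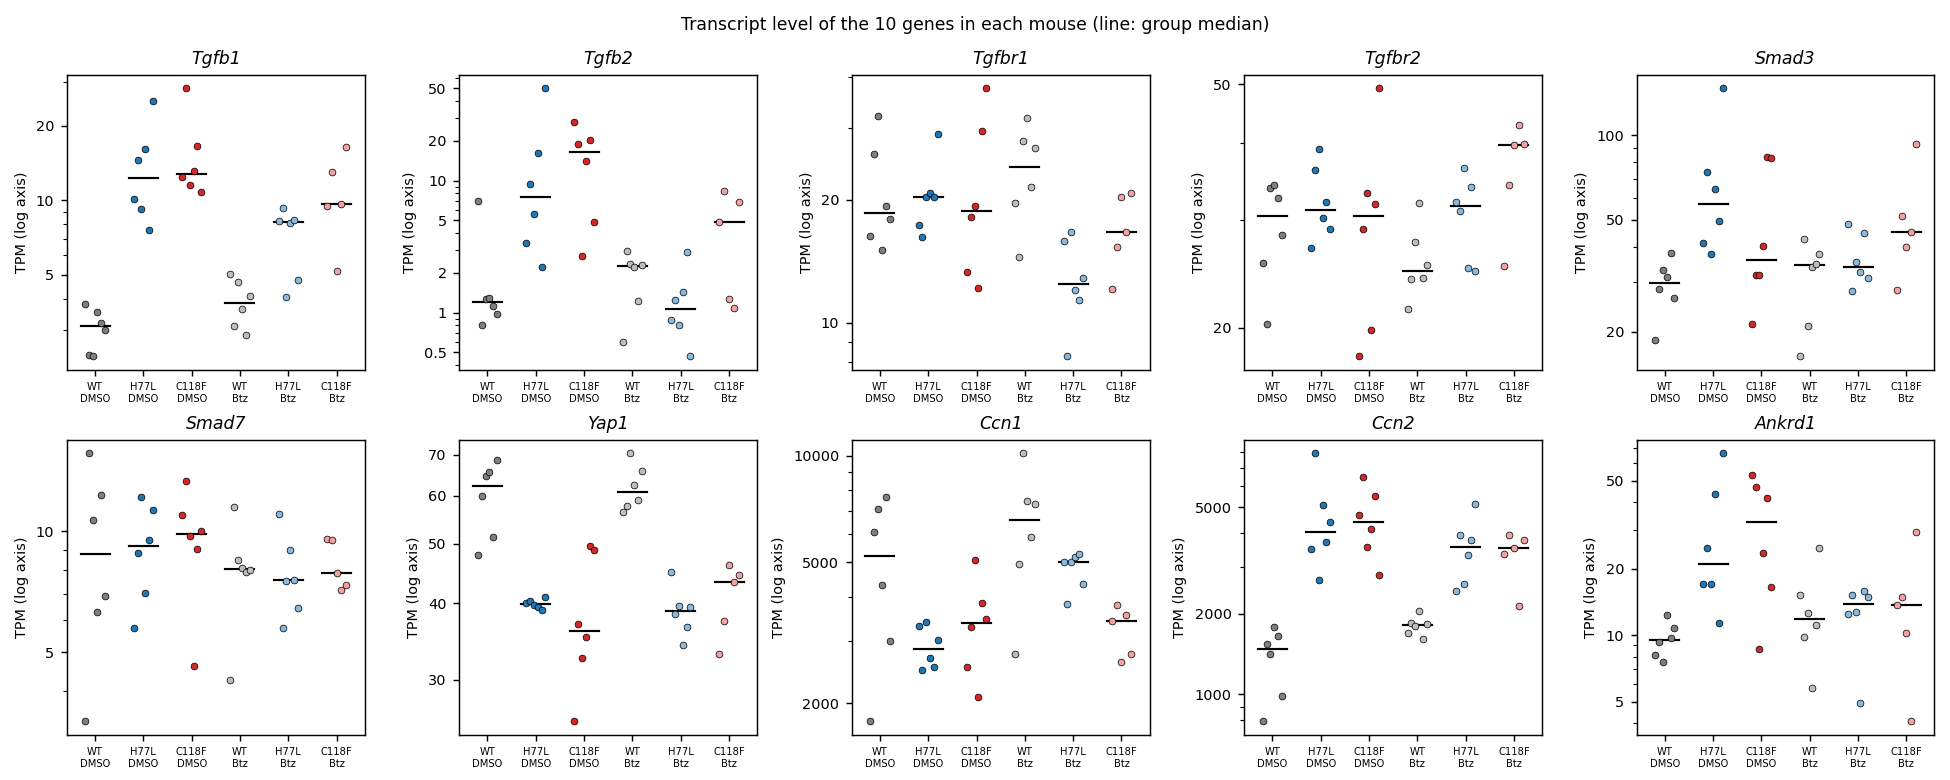
Transcript level (TPM, logarithmic axis) of the 10 genes in each of the 35 mice, by genotype and treatment; each point is a mouse and each line the median of a group. Tgfb1 and Ccn2 lay above every control mouse in both DMSO-treated knock-in lines, with 7.56 TPM as the lowest Tgfb1 value in H77L mice against 3.81 TPM as the highest in the controls.

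The libraries held 5268877 to 24148486 reads that could be recovered from the TPM steps, with a median of 19166329, and the smallest came from the C118F group given bortezomib. The transcript of Lmx1b was present in every group, with a median of 71.5 TPM in DMSO-treated controls, 120 TPM in H77L and 104 TPM in C118F mice, and gene-level values do not tell the mutant allele from the wild-type one. All 13 podocyte markers examined had a median of at least 1 TPM in some group, and their summed level was 27577 to 43700 TPM in DMSO-treated controls, 6139 to 11092 TPM in H77L and 5840 to 13522 TPM in C118F mice. The summed level of 10 mesangial markers was 40.0 to 110 TPM in these controls, 608 to 984 TPM in H77L and 644 to 2865 TPM in C118F mice. Des (medians 29.9, 478 and 556 TPM) and Pdgfrb (13.3, 196 and 125 TPM) had the higher medians in the knock-in lines. So did Mcam (1.85, 22.0 and 18.6 TPM), Cspg4 (1.53, 3.59 and 4.85 TPM) and Myh11 (0.0990, 1.05 and 0.472 TPM). The upper end of the C118F group came mostly from the renin gene Ren1, at 2166 TPM in 1 mouse. The median of Itga8, Gata3, Notch3 and Rgs5 stayed under 1 TPM in every group. Of 9 parietal epithelial markers, 3 were tested, and all 3 were higher in both lines under DMSO (median log2 fold changes 2.01 and 1.70), Cldn1 with medians of 24.0, 93.1 and 77.3 TPM. Of all genes tested, 22.4% and 13.7% were called higher. Cd44 (0.477, 5.95 and 14.5 TPM) could pass the filter on low values only through the knock-in mice. The keratin genes Krt8 (2.46, 0.541 and 0.192 TPM) and Krt18 (5.29, 1.39 and 0 TPM) of the same list had lower medians in both lines. The sum of 12 tubule markers had medians of 159, 22.4 and 27.1 TPM in the same groups, with 1 of 7 markers tested higher and 0 lower in H77L and 0 of 6 higher and 1 lower in C118F mice. In bulk RNA, fewer cells of a type and less RNA per cell cannot be told apart, and the part of these marker levels in the results below was not tested.

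A pair of libraries stood apart by markers of leukocytes, fibroblasts, mesangial or endothelial cells. Replicate 1 of the DMSO-treated controls had summed leukocyte and fibroblast markers of 528 and 960 TPM (group medians 26.1 and 174 TPM), and replicate 1 of the DMSO-treated C118F mice had summed mesangial and endothelial markers of 2865 and 213 TPM (group medians 802 and 26.9 TPM). By tubule markers, 5 further libraries exceeded 5 times the median of their group: replicate 2 of the DMSO-treated controls (2566 TPM), replicate 5 of the DMSO-treated H77L mice (1255 TPM), replicate 4 of the DMSO-treated C118F mice (379 TPM), replicate 2 of the bortezomib-treated controls (1346 TPM) and replicate 4 of the bortezomib-treated H77L mice (274 TPM). Values without the pair, or without these 5 libraries, are given below where they change a call of a member, and both choices were made after seeing the data.

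The first question was whether the members differ between knock-in podocytes and controls under DMSO. In H77L mice 5 members were higher and Yap1 was lower at an adjusted p under 0.05 (limma, Benjamini-Hochberg adjustment over all 10964 genes tested), and in C118F mice 4 were higher and Yap1 was lower (10899 genes tested). All 10 members passed the filter on low values in both comparisons. The ligands, Ccn2 and Ankrd1 were higher in both lines, while the receptors and Smad7 passed the threshold in neither. Of all genes tested, 44.8% were called in H77L and 30.4% in C118F mice, so that 6 and 5 of 10 members called are to be read against a large background. Of all genes, 22.4% were called higher and 22.4% lower in H77L, and 13.7% higher and 16.6% lower in C118F mice. Both comparisons share the 6 control mice.

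Tgfb1, the most widely expressed TGF-beta ligand, ranged from 2.35 to 3.81 TPM in controls with a median of 3.10 TPM. In H77L mice it ranged from 7.56 to 25.1 TPM (median 12.3 TPM), and in C118F mice from 10.8 to 28.4 TPM (median 12.8 TPM). Every knock-in mouse thus exceeded every control. Differences are given as log2(TPM + 1), so that those of genes near 1 TPM come out too small, and on this scale Tgfb1 was higher by 1.78 ± 0.24 (SE, n = 6 and 6; adjusted p = 4.0e-05, limma) in H77L and by 1.96 ± 0.22 (adjusted p = 1.1e-05, limma) in C118F mice, a 3.43-fold and a 3.89-fold difference. Groups that do not overlap in this direction were found for 11% and 6.48% of all genes tested.

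Tgfb2, a ligand with roles in development and epithelial remodelling, lay between 0.804 and 1.29 TPM in 5 of the 6 controls and at 7.07 TPM in the remaining one, the library with leukocyte and fibroblast markers. It ranged from 2.21 to 50.4 TPM in H77L mice (median 7.49 TPM) and from 2.7 to 28.0 TPM in C118F mice (median 16.4 TPM). Apart from that control, every knock-in mouse was above the controls. As some controls lay under 1 TPM, Tgfb2 passed the filter only through the knock-in mice, which favours a higher value. The difference was 1.90 ± 0.57 (adjusted p = 0.015, limma) in the first and 2.27 ± 0.50 (adjusted p = 0.0034, limma) in the second line. Without the pair of libraries named above it came to 2.22 (adjusted p = 0.0055) and 2.36 (adjusted p = 0.0012). Once the number given to each animal in its label was added to the fit as a linear term, the call was lost in H77L mice, at a difference of 1.18 and an adjusted p of 0.24. With no filter on low values it was lost as well (adjusted p = 0.054, limma), which left 5 members called in that line.

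The receptors gave another picture. Tgfbr1, the type I receptor kinase, ranged from 15.1 to 32.0 TPM in controls, from 16.2 to 29.1 TPM in H77L and from 12.2 to 37.6 TPM in C118F mice. The differences were -0.0030 (95% confidence interval -0.39 to 0.39; adjusted p = 0.99, limma) and -0.023 (-0.58 to 0.54; adjusted p = 0.96), so that a difference of up to about these bounds is not excluded by the interval. For Tgfbr2, the ligand-binding type II receptor, the medians were 30.5, 31.1 and 30.4 TPM in the same order, with differences of 0.15 (-0.14 to 0.44; adjusted p = 0.38, limma) and -0.0049 (-0.47 to 0.46; adjusted p = 0.99).

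Smad3, the transducer that carries the signal to the nucleus, was higher in H77L mice, where it ranged from 37.7 to 147 TPM (median 57.1 TPM) against 18.7 to 38.3 TPM in controls (median 29.8 TPM). The lowest of these mice lay just below the highest control, and the difference was 1.07 ± 0.27 (adjusted p = 0.0055, limma). In C118F mice 4 values lay between 21.3 and 40.3 TPM and the remaining ones at 82.7 and 83.5 TPM, and the difference of 0.56 ± 0.30 did not pass (adjusted p = 0.18, limma). Without replicate 1 of that group it was 0.75 (adjusted p = 0.046). A direct comparison of the lines under DMSO gave -0.52 for Smad3 (-1.31 to 0.27; adjusted p = 0.93, limma). Smad7, the feedback inhibitor, had medians of 8.81, 9.19 and 9.87 TPM in controls, H77L and C118F mice, and differences of 0.080 (-0.53 to 0.69; adjusted p = 0.84, limma) and 0.14 (-0.52 to 0.79; adjusted p = 0.77).

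Yap1 ranged from 48.0 to 68.6 TPM in controls (median 62.2 TPM). In H77L mice all 6 values lay between 39.0 and 41.0 TPM, below every control, and the difference was -0.56 ± 0.094 (adjusted p = 3.0e-04, limma). In C118F mice Yap1 ranged from 25.6 to 49.5 TPM (median 36.1 TPM) with a difference of -0.66 ± 0.16 (adjusted p = 0.0065, limma), and the highest 2 of these mice overlapped the lowest control. Groups apart in this direction were found for 10.1% of all genes tested in H77L and for 7.18% in C118F mice.

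Of the targets of YAP and TEAD, Ccn2 and Ankrd1 were called higher in both lines and Ccn1 in neither. Ccn2, which is induced by TGF-beta as well, ranged from 792 to 1790 TPM in controls (median 1482 TPM), from 2667 to 7940 TPM in H77L mice (median 4052 TPM) and from 2782 to 6499 TPM in C118F mice (median 4404 TPM). Every knock-in mouse exceeded every control, and the differences were 1.71 ± 0.25 (adjusted p = 1.0e-04, limma) and 1.73 ± 0.24 (adjusted p = 7.3e-05), that is 3.27-fold and 3.33-fold. Ankrd1, a nuclear ankyrin repeat protein best known from muscle, ranged from 7.55 to 12.3 TPM in controls, from 11.4 to 66.5 TPM in H77L and from 8.64 to 53.1 TPM in C118F mice. A single mouse of each knock-in line lay within the range of the controls, and the differences were 1.30 ± 0.33 (adjusted p = 0.0054, limma) and 1.40 ± 0.35 (adjusted p = 0.0082). With the number of the animal as a linear term the call for Ankrd1 was lost in H77L mice, at 1.00 and an adjusted p of 0.10.

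Ccn1, which had the highest level of all members in controls, encodes a regulator of adhesion and matrix. It ranged from 1778 to 7671 TPM in controls (median 5206 TPM), from 2482 to 3399 TPM in H77L mice (median 2857 TPM) and from 2079 to 5094 TPM in C118F mice (median 3374 TPM), with differences of -0.62 ± 0.30 (adjusted p = 0.10, limma) and -0.45 ± 0.33 (adjusted p = 0.33). The lowest control was again replicate 1, the library with leukocyte and fibroblast markers, in which the promptly induced genes discussed below were also lowest. Without it, Ccn1 was lower in H77L mice by a log2 difference of -0.88 (adjusted p = 0.0057), and without it and replicate 1 of the C118F group the difference in that line was -0.64 (adjusted p = 0.10). Whether Ccn1 passed in H77L mice thus depended on 1 control.

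As a description chosen after the values were seen, the level of Ccn1 was divided by that of Ccn2 within each mouse. The ratio was above 1 in 6 of 6 DMSO-treated controls, from 2.24 to 5.0 with a median of 3.49. It was above 1 in 1 of 6 H77L mice (median 0.686) and in 2 of 6 C118F mice (median 0.618). In most DMSO-treated knock-in mice Ccn2, not Ccn1, was thus the member with the highest level per length. With bortezomib the ratio was above 1 in 6 of 6 controls (median 3.64), in 4 of 6 H77L mice (median 1.48) and in 2 of 5 C118F mice (median 0.959). The sum of both genes had medians of 6876, 7123 and 7913 TPM in the 3 DMSO groups.

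**Figure D2:**
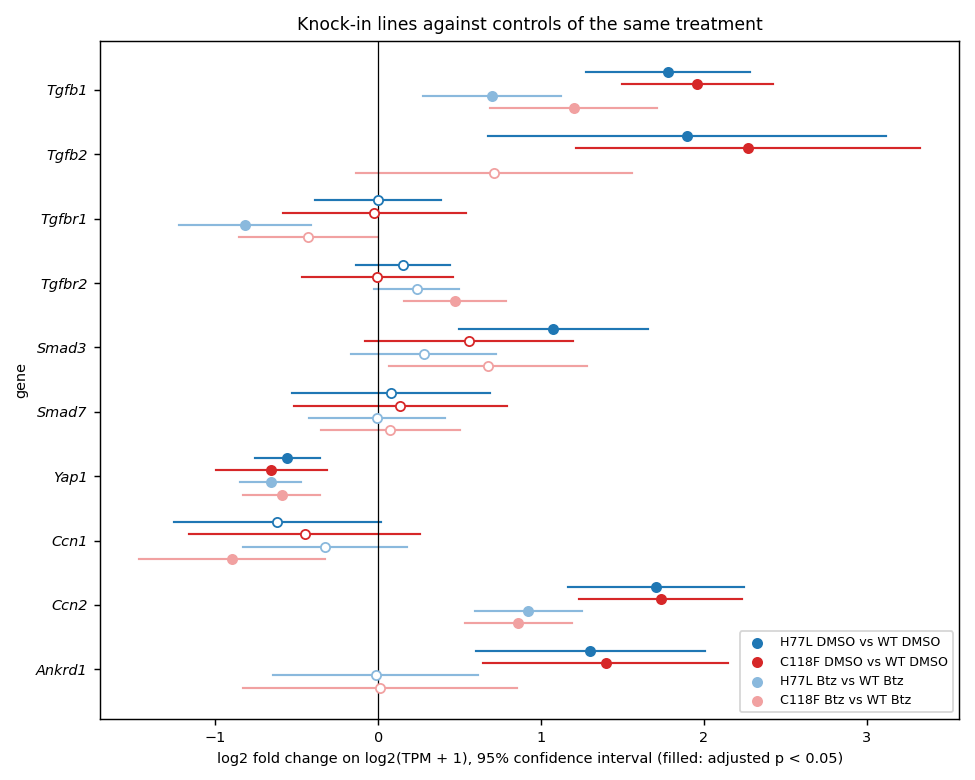
Log2 fold change of each gene, on log2(TPM + 1) and with its 95% confidence interval, for the knock-in lines against the controls of the same treatment; filled points have an adjusted p under 0.05 (limma), and Tgfb2 was not tested in bortezomib-treated H77L mice. Tgfb1 and Ccn2 were higher and Yap1 was lower in all 4 comparisons, whereas the values of Ankrd1 lay at 1.30 and 1.40 under DMSO and at -0.016 and 0.012 under bortezomib.

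When an adjusted p under 0.001 was required together with a log2 fold change beyond 2 in either direction, the cutoffs of the study, no member was called in either line. Those cutoffs called 2.17% and 2.27% of all genes. They were applied here to limma on log2(TPM + 1), whereas the study applied them to DESeq2 fits with shrunken fold changes. The calls of the study itself for these genes can therefore differ. Between the knock-in lines under DMSO no member was called (limma, adjusted p of 0.93 to 0.99) and none had an unadjusted p under 0.05, against 3.85% of all genes. The widest interval was that of Tgfb2, with a difference of 0.37 (-1.01 to 1.76) for C118F against H77L mice.

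Further genes of these pathways were taken from lists chosen, like the members, with earlier results of these data known. Among the ligands, latency proteins and activators of TGF-beta, 7 of 10 genes tested were higher and none was lower in DMSO-treated H77L mice, and 4 of 9 were higher in C118F mice. Their median log2 fold changes were 0.73 and 0.69, against -0.0099 and -0.064 over all genes tested, of which 22.4% and 13.7% were higher. Tgfb3, the third ligand gene, had a median of 6.25 TPM in controls, 37.1 TPM in H77L and 38.9 TPM in C118F mice, and was higher by 2.23 ± 0.40 (adjusted p = 4.5e-04, limma) and 2.38 ± 0.47 (adjusted p = 0.0017). Its highest control, replicate 1 at 34.9 TPM, overlapped the knock-in mice, and without the pair of libraries with other cells' markers Tgfb3 differed by 2.62 and 2.45 (adjusted p = 2.8e-06 and 1.9e-05, limma). Ltbp1, a protein that binds latent TGF-beta to the matrix, had medians of 0.955, 4.0 and 3.88 TPM. The knock-in mice did not overlap the controls, as was found in this direction for 11% and 6.48% of all genes tested. With a control median under 1 TPM, Ltbp1 passed the filter only through the knock-in mice, which favours a higher value. The convertase gene Furin and the matrix protein gene Emilin1 were called higher in both lines too.

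Among the co-receptors, Smads and adaptors other than the members, 2 of 9 genes were higher and 1 was lower in H77L mice, and 0 of 10 were higher and 1 was lower in C118F mice. The lower gene in both lines was Tab2, an adaptor of the kinase TAK1, with medians of 24.3, 13.2 and 14.2 TPM. Of the feedback genes, 4 of 14 were higher and 3 lower in the first line and 2 of 13 higher and 1 lower in the second. The counts of both lists were not far from the shares of all genes tested. These were 22.4% higher and 22.4% lower in H77L, and 13.7% higher and 16.6% lower in C118F mice. The ubiquitin ligase genes Nedd4l (1.6 ± 0.19 and 1.44 ± 0.26, adjusted p = 1.2e-05 and 7.1e-04, limma) and Smurf1 were higher. Bambi, a pseudoreceptor that dampens the pathway, was lower (medians of 69.7, 34.9 and 35.6 TPM without overlap). Of all genes tested, 10.1% and 7.18% were lower without overlap.

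Genes known to be induced by TGF-beta had the highest median of the 8 pathway lists in both lines. Of this list 9 of 15 genes were higher and 1 lower in H77L mice, and 9 of 14 were higher and none lower in C118F mice, with medians of 1.29 and 1.48. Of all genes tested, 22.4% and 13.7% were higher and 22.4% and 16.6% lower. Tagln, an actin-binding protein of smooth muscle, ranged from 4.5 to 9.28 TPM in controls (median 5.86 TPM), from 107 to 206 TPM in H77L mice (median 159 TPM) and from 65.7 to 254 TPM in C118F mice (median 150 TPM). Every knock-in mouse exceeded every control, and the differences were 4.43 ± 0.19 and 4.32 ± 0.27 (adjusted p = 7.1e-10 and 5.3e-08, limma). Timp1, an inhibitor of matrix metalloproteinases, and Bhlhe40, a transcriptional repressor, were higher in both lines, by 3.21 and 4.13 and by 3.91 and 3.11, respectively. For Timp1 the highest control, again replicate 1 at 39.4 TPM, overlapped the knock-in mice. Without the pair of libraries the differences were 3.84 and 4.51 for Timp1, 3.78 and 3.23 for Bhlhe40, and 4.53 and 4.44 for Tagln, and all 3 genes stayed called in both lines, as they did without the 5 libraries with tubule markers.

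**Figure D3:**
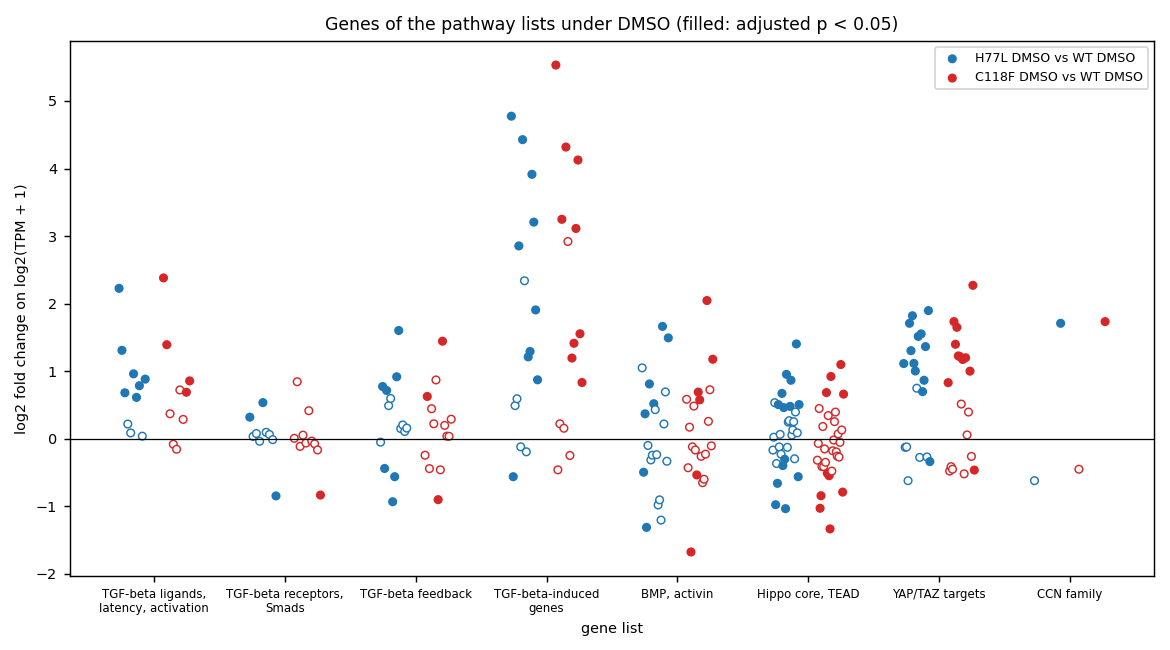
Log2 fold change (on log2(TPM + 1)) of every tested gene of 8 pathway lists in DMSO-treated knock-in mice against DMSO-treated controls; blue points are H77L and red points C118F mice, and filled points have an adjusted p under 0.05 (limma). The list of YAP/TAZ targets and the CCN family contain members. The TGF-beta-induced genes, with Tagln at 4.43 and 4.32, have medians of 1.29 and 1.48, whereas the receptors and Smads have medians of 0.063 and -0.049.

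In the list of YAP/TAZ targets, which includes Ccn1, Ccn2, Ankrd1 and Tgfb2, 12 of 19 genes were higher and 1 lower in H77L mice, and 10 of 19 higher and 1 lower in C118F mice (medians of 1.00 and 0.83). Asap1, which regulates Arf GTPases, had medians of 7.19, 25.4 and 25.0 TPM, and the matrix-associated gene Ccdc80 of 55.6, 182 and 156 TPM. In the list of Hippo components and TEAD factors, 8 of 30 genes were higher and 6 lower in the first and 4 higher and 6 lower in the second line. Of all genes tested, 22.4% were higher and 22.4% lower in H77L, and 13.7% higher and 16.6% lower in C118F mice. The counts of the Hippo list were close to these shares. Amotl1, one of the angiomotins, was higher by 0.95 and 0.92. Its relative Amot (-1.04 and -1.33) and the transcription factor gene Tead4 (-0.98 and -1.03) were lower. Of 6 CCN genes only Ccn1 and Ccn2 passed the filter on low values.

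On the related BMP and activin branch, 5 of 19 genes were higher and 2 lower in H77L mice, and 4 higher and 2 lower in C118F mice, with medians of -0.10 and -0.11. These counts were not far from the shares of all genes tested, with 22.4% and 13.7% higher and 22.4% and 16.6% lower. The BMP antagonist gene Chrd (medians of 2.19, 8.35 and 12.6 TPM), the receptor gene Acvr2b and the stress-responsive ligand gene Gdf15 were higher, and the receptor gene Bmpr1b was lower (4.85, 1.2 and 0.979 TPM). With a C118F median under 1 TPM, Bmpr1b could pass the filter in that comparison only through the controls, which favours a lower value.

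The next question was whether the members differ between knock-in mice and controls when both received bortezomib. In H77L mice 2 of the 9 members tested were higher and 2 lower, against 23.6% of all genes called (12.5% higher and 11% lower). In C118F mice 3 of 10 were higher and 2 lower, against 27.5% (15.1% higher and 12.4% lower). In these limma fits the cutoffs of the study called no member, and 1.2% and 1.93% of all genes. Tgfb1 and Ccn2 were again higher and Yap1 lower in both lines. The Tgfb1 call in H77L mice was lost with no filter on low values and without the libraries with tubule markers. In these mice the summed podocyte markers were 27385 to 35737 TPM in controls, 11154 to 15575 TPM in H77L and 9078 to 13139 TPM in C118F mice, and the mesangial ones 50.2 to 70.0, 412 to 618 and 525 to 904 TPM.

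Tgfb1 ranged from 2.86 to 5.04 TPM in bortezomib-treated controls (median 3.87 TPM) and from 4.06 to 9.27 TPM in H77L mice (median 8.18 TPM), a difference of 0.70 ± 0.20 (adjusted p = 0.018, limma). This call was lost with no filter on low values (adjusted p = 0.056, limma) and without the libraries with tubule markers, at 0.61 (adjusted p = 0.079). The 5 C118F mice had 9.52, 13.0, 5.20, 9.69 and 16.5 TPM, all above the controls, and differed by 1.2 ± 0.24 (adjusted p = 0.0018, limma). Of all genes, 9.01% were higher without overlap in this comparison. Tgfb2 had medians of 2.24, 1.07 and 4.83 TPM in controls, H77L and C118F mice. It did not pass the filter for the comparison with H77L mice, where a two-sided exact permutation test gave p = 0.22 for a difference of -0.37, and its difference in C118F mice was 0.71 ± 0.40 (adjusted p = 0.20, limma). In the latter comparison Tgfb2 passed the filter only through the C118F mice, which favours a higher value.

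Tgfbr1 was lower in bortezomib-treated H77L mice, where it ranged from 8.29 to 16.7 TPM (median 12.5 TPM) against 14.5 to 31.8 TPM in controls (median 24.1 TPM). The difference was -0.82 ± 0.19 (adjusted p = 0.0048, limma), and only the upper 2 of these mice overlapped the controls. In C118F mice it was -0.43 ± 0.20 (adjusted p = 0.12, limma), and it was called with the linear term for the number of the animal (-0.77, adjusted p = 0.036) and without the libraries with tubule markers (-0.56, adjusted p = 0.036). Tgfbr2 was called higher in C118F mice, with 25.2, 34.3, 39.7, 42.9 and 39.9 TPM against a median of 24.7 TPM in controls and a difference of 0.47 ± 0.15 (adjusted p = 0.028, limma), but this call was lost in 6 of 11 fits that left out 1 mouse, with an adjusted p of up to 0.080, with no filter on low values (adjusted p = 0.051) and without the libraries with tubule markers (0.46, adjusted p = 0.053). With the number of the animal as a linear term the Tgfbr2 difference was 0.24 and its adjusted p 0.38 (limma). Smad3 and Smad7 were called in neither line.

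Yap1 ranged from 56.3 to 70.4 TPM in controls and from 34.2 to 44.9 TPM in H77L mice, and the C118F mice had 33.0, 37.5, 46.2, 43.4 and 44.5 TPM. Every knock-in mouse was below every control, and the differences were -0.66 ± 0.088 (adjusted p = 3.9e-05, limma) and -0.59 ± 0.11 (adjusted p = 0.0011), where 5.3% and 6.74% of all genes were lower without overlap. Ccn2 ranged from 1608 to 2055 TPM in controls and from 2435 to 5127 TPM in H77L mice, with 3327, 3947, 3530, 2144 and 3758 TPM in C118F mice, again without overlap, as were 6.8% and 9.01% of all genes in this direction. Its differences were 0.92 ± 0.16 (adjusted p = 3.6e-04, limma) and 0.86 ± 0.15 (adjusted p = 7.9e-04).

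Ccn1 had a median of 6599 TPM in bortezomib-treated controls (2748 to 10165 TPM) and of 5020 TPM in H77L mice (3810 to 5294 TPM), with a difference of -0.32 ± 0.24 (adjusted p = 0.36, limma). In C118F mice its values were 3418, 3787, 2622, 3557 and 2759 TPM, lower by a log2 difference of -0.90 ± 0.27 (adjusted p = 0.022, limma). Again a single control, replicate 1 at 2748 TPM, lay below the other controls, which ranged from 4940 TPM upwards. Without that mouse Ccn1 was called lower in H77L mice as well (-0.55, adjusted p = 0.025), and without replicate 3 of the C118F group its call in that line was lost (adjusted p = 0.056), as it was with no filter on low values (adjusted p = 0.093, limma) and with the number of the animal as a linear term (adjusted p = 0.091). Ankrd1 differed by -0.016 (-0.64 to 0.61; adjusted p = 0.98, limma) and 0.012 (-0.83 to 0.85; adjusted p = 0.99).

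Ccn1 also had the lowest p of all members between the knock-in lines under bortezomib. All 5 C118F mice had less Ccn1 than all 6 H77L mice, at a difference of -0.57 ± 0.13 that did not pass (adjusted p = 0.052, limma; unadjusted p = 5.4e-04). Groups apart in this direction were found for 0.889% of all genes tested, and 0.972% were called. No member was called in this comparison, Tgfb2 and Ccn1 had an unadjusted p under 0.05 as did 14.4% of all genes, and limma voom on recovered reads called 1 member, Ccn1. Here Tgfb2 passed the filter only through the C118F mice, which favours a higher value in them. From the list of promptly induced genes, the heat shock genes Hspa1a and Hspa1b were lower in C118F mice by -2.36 and -2.79 (adjusted p = 0.025 and 0.024, limma).

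The bortezomib effect was then examined within each genotype. In controls, no member was called, and no gene of the 10659 tested (0%). Of the members tested, Ccn2 alone had an unadjusted p under 0.05, as did 8.66% of all genes. Its median was 1482 TPM with DMSO and 1815 TPM with bortezomib, and the difference of 0.46 ± 0.18 had an adjusted p of 0.56 (limma), and without the control that held leukocyte and fibroblast markers it was 0.31 (adjusted p = 0.78). Ccn2 at 792 and 982 TPM in replicates 1 and 6 of the DMSO group made up the lower end. Tgfb2 did not pass the filter, and its difference of 0.10 had p = 0.81 in a two-sided exact permutation test.

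In H77L mice, 1 member, Ccn1, was higher after bortezomib, against 1.16% of all genes called and 0.416% called higher. It ranged from 2482 to 3399 TPM with DMSO and from 3810 to 5294 TPM with bortezomib, without overlap, and the difference was 0.72 ± 0.11 (adjusted p = 0.018, limma). This direction without overlap was found for 1.22% of all genes. The difference lay between 0.67 and 0.78 in all 12 fits that left out 1 mouse, but its adjusted p rose to between 0.051 and 0.077 in 5 of them, without H77L bortezomib replicates 2, 3, 4 or 6 or without DMSO replicate 4. The Ccn1 call was also lost with no filter on low values (adjusted p = 0.10), with all mice in 1 fit (adjusted p = 0.23) and without the libraries with tubule markers (0.66, adjusted p = 0.059, limma). Of the other list genes, the early response gene Nr4a1 rose by 0.72 and the intermediate filament gene Des fell by 0.52 on the log2 scale (adjusted p = 0.035 and 0.044, limma).

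A further 5 members of this line had an unadjusted p under 0.05 without passing after adjustment, where the share of all genes was 20%. Tgfb2 had a median of 7.49 TPM with DMSO and of 1.07 TPM with bortezomib, and 5 of the 6 bortezomib-treated mice were below every DMSO-treated mouse (difference -2.16 ± 0.53, adjusted p = 0.059, limma). It passed the filter only through the DMSO-treated mice, which favours a lower value with bortezomib. With no filter on low values its adjusted p was 0.15 (limma). Tgfbr1 had medians of 20.3 and 12.5 TPM (-0.65 ± 0.17, adjusted p = 0.065), and Tgfb1 of 12.3 and 8.18 TPM (-0.81 ± 0.26, adjusted p = 0.11). For Smad3 the medians were 57.1 and 34.0 TPM (-0.76 ± 0.26, adjusted p = 0.13, limma), and for Ankrd1 20.9 and 13.8 TPM (-1.01 ± 0.37, adjusted p = 0.15). All 5 had the lower median with bortezomib. Tgfb2 passed the threshold in 3 of the 12 fits that left out 1 mouse, without DMSO replicate 1, 5 or 6, with an adjusted p of 0.026 to 0.047, and Tgfbr1 in 1 of them, without bortezomib replicate 1.

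In C118F mice no member was called and no gene of the 10814 tested (0%), and the members Tgfb2 and Ankrd1 had an unadjusted p under 0.05, as did 5.86% of all genes. All members overlapped between the treatments, where 0.287% of all genes were higher and 0.222% lower without overlap. Tgfb2 had a median of 16.4 TPM with DMSO and 4.83, 8.37, 1.27, 1.08 and 6.94 TPM with bortezomib, a difference of -1.45 (-2.66 to -0.25; adjusted p = 0.81, limma). Ankrd1 had a median of 32.5 TPM with DMSO and 13.7 TPM with bortezomib (-1.07, -2.12 to -0.030; adjusted p = 0.81). The highest Tgfb2 and Ankrd1 values of the DMSO group belonged to replicate 1, the library with Ren1, and without it the differences were -1.21 and -0.88 (adjusted p = 0.995 for both, limma). Yap1 was called in no genotype, with differences of 0.061 in controls, -0.043 in H77L and 0.12 in C118F mice and intervals between -0.25 and 0.49.

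**Figure D4:**
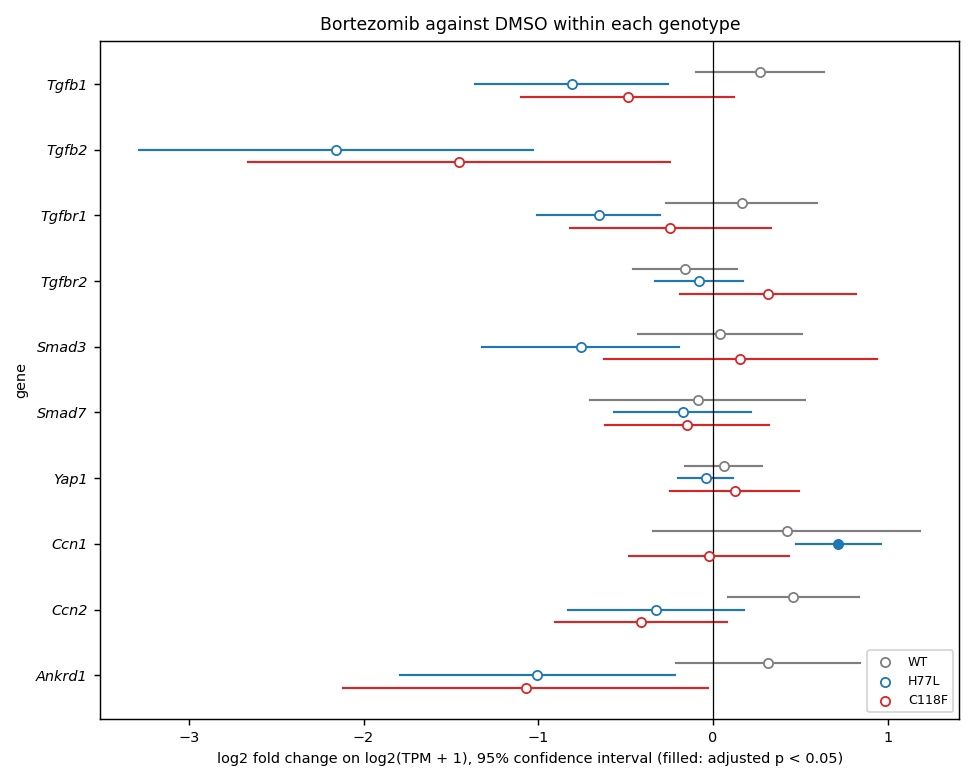
Log2 fold change of each gene after bortezomib against DMSO, on log2(TPM + 1) with its 95% confidence interval, in controls (grey), H77L (blue) and C118F mice (red); filled points have an adjusted p under 0.05 (limma), and Tgfb2 was not tested in controls. Only Ccn1 in H77L mice is filled, and the Tgfb1, Tgfb2, Ccn2 and Ankrd1 values of both knock-in lines lie below 0, while those of the controls that were tested lie above 0.

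Whether bortezomib acted differently on the genotypes was tested on the difference of the changes. Between both knock-in lines no member and none of all genes was called (limma, 0%), and Ccn1 had the lowest p, with a change in H77L mice that exceeded that in C118F mice by 0.74 ± 0.24 (limma, adjusted p = 0.65). It was the only member with an unadjusted p under 0.05, as had 7.6% of all genes. The contrasts of H77L and of C118F mice with the controls were added after the values had been seen. In the contrast of H77L mice, Tgfb2 passed the filter only through the DMSO-treated H77L mice, which favours a negative value. For H77L against controls, 6 members had an unadjusted p under 0.05 where 18.2% of all genes did, and none passed after adjustment: Tgfb1 (-1.08 ± 0.32, adjusted p = 0.099, limma), Tgfb2 (-2.26 ± 0.67, adjusted p = 0.10), Tgfbr1 (-0.82), Smad3 (-0.80), Ccn2 (-0.79) and Ankrd1 (-1.32). For C118F against controls the members were Tgfb1 (-0.76), Tgfb2 (-1.56), Ccn2 (-0.87) and Ankrd1 (-1.39), with adjusted p-values of 0.82 to 0.95 (limma), where 5% of all genes had an unadjusted p under 0.05. The contrasts listed were all negative, though none passed the test, and they were picked by their unadjusted p. For H77L against controls, the other members were Ccn1 (0.30), Tgfbr2 (0.084), Smad7 (-0.086) and Yap1 (-0.10). For C118F against controls they were Tgfbr2 (0.48), Smad3 (0.12), Yap1 (0.063), Smad7 (-0.061), Tgfbr1 (-0.41) and Ccn1 (-0.44).

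Members were further compared by how they varied among mice of the same group, using the deviation of log2(TPM + 1) from the group mean in all 35 mice. Of the 45 pairs, 9 passed with Pearson's r and 7 with Spearman's rho at an adjusted p under 0.05 in permutation tests within groups, and all were positive. Tgfb1 and Tgfb2 deviated together (r = 0.67, rho = 0.66; adjusted p = 0.0040 and 0.0063, permutation; r = 0.60 without the 2 mice farthest from the median), and so did Tgfb2 and Ankrd1 (r = 0.68, rho = 0.61; adjusted p = 0.0040 and 0.0098, permutation; r = 0.57 without 2 mice). The pair of Tgfb1 and Ankrd1 had r = 0.56. A second set comprised Tgfbr1 and Yap1 (r = 0.65, rho = 0.63; adjusted p = 0.012 and 0.0098, permutation; r = 0.58 without 2 mice), and, with Pearson's r alone, the pairs of Tgfbr1 with Tgfbr2 and Smad3 and of Yap1 with the same genes. With Spearman's rho alone, the pairs of Tgfbr1 with Ccn1 (rho = 0.52, adjusted p = 0.037, permutation; r = 0.47) and of Ccn2 with Ankrd1 (rho = 0.51, adjusted p = 0.037, permutation; r = 0.46) passed. Smad7 and Ccn1 had r = 0.68 and rho = 0.52 (adjusted p = 0.012 and 0.044, permutation; r = 0.52 without 2 mice). Replicate 1 of the DMSO-treated controls had the lowest values of both genes among all mice.

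As podocytes were isolated by digestion of the tissue, a list of 24 promptly induced genes such as Fos, Egr1 and Atf3 was compared with each member in the same way. Ccn1 followed this list (r = 0.71, rho = 0.60; adjusted p = 0.0041 and 0.010 over 10 tests, permutation; r = 0.54 without 2 mice). Smad3 passed with r = 0.52 (adjusted p = 0.0041) and not with rho = 0.40 (adjusted p = 0.11). Tgfb1, Tgfb2 and Ankrd1 had r of 0.13, -0.11 and 0.052. The mean level of the list was 8.41 ± 0.81 (SD, n = 6) in DMSO-treated controls, 9.36 ± 0.19 in H77L and 9.0 ± 0.64 in C118F mice on the log2(TPM + 1) scale. The summed TPM of the list, which its most abundant genes dominate, had medians of 51089, 53867 and 38403 TPM in the same order. Its genes did not move as one, with medians of 10.4, 309 and 204 TPM for Gadd45g and of 3173, 1997 and 1311 TPM for Dusp1. The part of this list in the differences between groups was not tested.

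**Figure D5:**
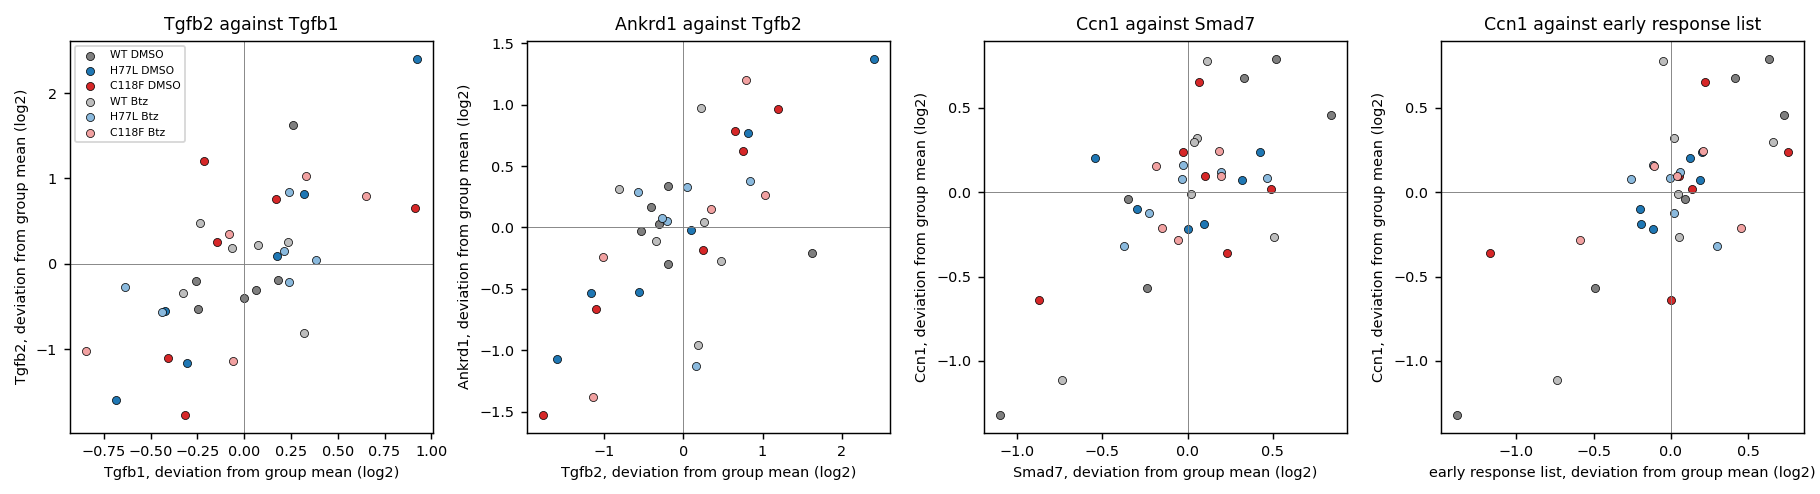
Deviation of log2(TPM + 1) from the group mean in each of the 35 mice for 4 pairs, Tgfb2 against Tgfb1, Ankrd1 against Tgfb2, Ccn1 against Smad7 and Ccn1 against the mean of the early response list; colours mark the 6 groups. The points rise together in each panel, with r of 0.67, 0.68, 0.68 and 0.71.

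Over all 35 mice and with the groups left in, each member was finally compared with 11306 genes to name those with the most similar pattern, as a description that the group differences dominate. Closest to Tgfb1 were Csf1 (r = 0.94) and Pla2r1 (r = 0.93), to Tgfb2 the genes Tnc (r = 0.93), Cav1 (r = 0.92) and Myc (r = 0.91), and to Yap1 the gene Rmnd5a (r = 0.94). Ankrd1 was closest to Nupr1 (r = 0.83) and Myc (r = 0.81), and the third was Tgfb2 (r = 0.79). Ccn2 was closest to Tal2 and Slc6a6 (both r = 0.89) and Ccn1 to Dnajb4 (r = 0.84). Smad7 had no gene above r = 0.64.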

How the data were processed

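The members and the lists of other genes were chosen with earlier results of these data known. As far as the submitters' processing notes say, the authors trimmed the reads of poly(A) libraries with Trim Galore 0.6.7, aligned them to GRCm39 with STAR and counted them with featureCounts 1.6.3. The authors deposited TPM values. How the counts became TPM is not given in the sources used here.

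TPM was transformed to log2(TPM + 1). A gene was tested if all mice of 1 or more compared groups exceeded 1 TPM, in limma 3.58.1 (R 4.3.3, intensity trend) fitted to the mice compared, with Benjamini-Hochberg adjustment. The scripts were tested on simulated data. Members under the filter were compared with exact permutation tests, and correlations with 100000 permutations within groups. Depth was estimated from the TPM steps; errors are the spread between mice, since amplified reads do not count molecules. The labels give no batch or sex. Other list genes named are up to 4 per list with the largest mean change in both lines under DMSO, and those called after bortezomib; some of these are not reported here. For each member, up to 3 of the most similar genes were named.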

Additional observations from a re-analysis of the deposited data

Results flagged for a closer look

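In 6 of 60 groups of members, the highest or the lowest mouse lay apart from the others of its group by Dixon's criterion at the 95% level. The criterion was applied to TPM and not to log2(TPM + 1), on which high values stand out less. A chance rate of about 1 in 20 holds for independent groups of normally distributed values. The groups here share mice, so the count is a description and is not set against that rate. In DMSO-treated H77L mice the highest Tgfb2 (50.4 TPM), Smad3 (147 TPM) and Tgfbr1 (29.1 TPM) values all belonged to replicate 6, which also had the highest Tgfb1 and Ankrd1 values of its group. The highest Tgfb2 value of the DMSO-treated controls (7.07 TPM) belonged to replicate 1, and the highest Tgfb1 value among C118F mice given DMSO (28.4 TPM) to replicate 2. In bortezomib-treated H77L mice the lowest Ankrd1 value (4.93 TPM) belonged to replicate 4.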

How the results depend on the processing

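No member changed direction under any alternative after having been called. Applied to the limma fits, the cutoffs of the study left 0 members in each comparison. Leaving out 1 mouse at a time gave 6 to 7 and 5 to 6 members for H77L and C118F against controls under DMSO, 4 to 5 and 3 to 6 under bortezomib, 0 to 2 for bortezomib in H77L mice, and 0 to 1 between the lines under bortezomib; it left 0 in the other comparisons. For bortezomib in H77L mice, no filter on low values gave 0 members, and a pseudocount of 0.1, the number of the animal as a linear term and array weights gave 2 each. Of all genes in that comparison, 45 of 125 called were higher, against 27 of 124 (21.8%) with median-of-ratios scaling, and the number called was 0 with no filter, 66 with all mice in 1 fit, 19 with no intensity trend and 73 with voom. Between the lines under bortezomib, 105 genes called became 13, 27 and 51 with the first 3 of these, 24 with the number of the animal and 348 with array weights, and for H77L against controls under DMSO 4907 became 2873 with the number of the animal. Fitting all mice together called 23 genes for bortezomib in C118F mice, where 0 were called otherwise, and the contrast of H77L with controls called 3 with no intensity trend. For C118F against controls under bortezomib, no filter gave 3. Between the lines under bortezomib, array weights and voom gave 1 each, and voom called 0 members in the other comparisons in which limma called 0. The cause was not tested. Leaving out the pair of libraries with markers of other cells, chosen after seeing the data, gave 7 members in H77L and 5 in C118F mice under DMSO. Leaving out the 5 libraries with tubule markers, also chosen after seeing the data, gave 6 and 5 under DMSO, 3 and 5 under bortezomib, and 0 for bortezomib in H77L mice. Counted over all members, comparisons and fits that left out 1 mouse, a call was lost 12 times and gained 10 times. Several of these counts fell on the same member and comparison. Of the losses, 6 were those of Tgfbr2 in C118F mice against controls under bortezomib, and 5 those of Ccn1 for bortezomib in H77L mice. No paired analysis was possible because the labels give the groups no shared replicate numbers. Tgfb2, with a lowest value of 14 reads, was the member most limited by depth.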
